A study of Mus musculus with 42 samples.

Results

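The transcripts described here are 9 genes of the urea cycle and of amino acid breakdown, Cps1, Otc, Ass1, Asl, Gls2, Glul, Sds, Tat, and Got1. They were taken by gene name from a read count table of 54532 genes, and all 9 were found. They were followed in the libraries with liver transcripts, defined by more than 10000 CPM (counts of a gene divided by the total count of the library, on a scale of 1000000) of the albumin transcript Alb, which were 32 of the 42 libraries. The mice were female C57BL/6 (C57BL/6NHsd in the study's methods), 3 weeks of age at the start, group-housed and fed freely for 3 weeks. The AIN93G group received the standard AIN93G diet with 16% of energy from fat, and the HFD group received a modified AIN93G diet, also based on soybean oil, with 45%. Both diets had the same share of energy from protein, and no mouse was fasted before collection. Livers were labelled every 4 h from Zeitgeber time (ZT) 0, when lights went on, to ZT 24, and lights went off at ZT 12. There were 3 libraries per diet and time point.

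The urea cycle is the route by which the liver turns ammonia, released when amino acids are broken down, into urea. Carbamoyl phosphate and citrulline are made in mitochondria, argininosuccinate, arginine, and urea are made in the cytosol, and most of this takes place in the periportal hepatocytes that blood reaches first. Ammonia that passes this zone is captured as glutamine by a thin layer of pericentral hepatocytes. Many of these genes are known for their response to dietary protein, glucagon, and glucocorticoids.

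Total counts ranged from 14592481 to 21368409 per library. Alb was between 66434 and 111995 CPM in the 32 liver libraries and between 18.7 and 81.0 CPM in the 10 others. At ZT 16 and ZT 20 these were the whole AIN93G group (6 libraries), and at ZT 24 they were 2 of 3 libraries of each diet. In those 10 libraries the adipocyte transcript Adipoq was between 1455 and 2984 CPM, against at most 5.01 CPM in the liver libraries. All tests therefore used the 30 liver libraries of ZT 0 to ZT 20, 12 for AIN93G and 18 for the HFD, and the diets were tested only from ZT 0 to ZT 12. Transcripts of the circadian clock went against some labels. At ZT 12, Dbp was between 59.0 and 91.4 CPM in 3 libraries and between 0.13 and 0.37 CPM in the other 3 (AIN93G replicates 2 and 3, HFD replicate 3), where Arntl was between 38.4 and 46.9 CPM, close to its 39.9 to 49.1 CPM at ZT 0. The labels also give a phase for each ZT 12 library, which was dark for the 3 libraries high in Dbp and for AIN93G replicate 3, and light for AIN93G replicate 2 and HFD replicate 3. The liver library of ZT 24 of each diet had 148 and 66.1 CPM of Dbp, where ZT 0 had at most 0.83 CPM. For most results of the 9 genes that rest on ZT 12, values without these 3 libraries are given as well. They leave 1 AIN93G library and 2 HFD libraries at ZT 12, and the lone library is then assumed to vary like the other groups. Markers of skeletal muscle summed to between 2.52 and 10.6 CPM at ZT 0 and to between 3.79 and 1826 CPM at ZT 8 (median 26.7), with the highest sum in AIN93G ZT 8 replicate 2.

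Levels between genes were compared as TPM, which divide the counts by gene length before scaling to the same total. Over the 32 liver libraries, the median TPM was highest for Ass1, which joins citrulline and aspartate (3014, range 1611 to 5179), and for Cps1, which makes carbamoyl phosphate (1937, range 1364 to 3452). Tat, the first enzyme of tyrosine breakdown, followed at 1797 TPM. Glul, the glutamine synthetase, had a median of 720 TPM. The other 5 lay lower, at 327 TPM for the cytosolic aspartate aminotransferase Got1, 323 TPM for the liver glutaminase Gls2, 289 TPM for the ornithine carbamoyltransferase Otc, 284 TPM for the argininosuccinate lyase Asl, and 188 TPM for the serine dehydratase Sds. The ranges of all neighbors in this order overlapped. All further levels are CPM, which compare the same gene between libraries.

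In the mm10 coordinates of the count table, Cps1 was at chr1:67123026-67231259, Otc at chrX:10252305-10321024, Ass1 at chr2:31470207-31520672, and Asl at chr5:130011258-130029247. Gls2 was at chr10:128194457-128210004, and Glul at chr1:153899944-153909723. Sds was at chr5:120476526-120483932, Tat at chr8:109990437-109999803, and Got1 at chr19:43499752-43524605. The values are sums over the exons of each gene. On the other strand, Sds overlapped Plbd2 and Gm15690, Gls2 overlapped Spryd4, and Glul overlapped Teddm2. Glul also overlapped Mir8114 on its own strand. The strand setting of the counting is not given in the sources used here, so reads of these partners cannot be told apart. The partners on the other strand had at most 1296 (Plbd2), 457 (Gm15690), 688 (Spryd4), and 60 (Teddm2) counts in a liver library.

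Of the 9 genes, 5 (Otc, Ass1, Glul, Tat, and Got1) had an entry in the RefSeq promoter table of build GRCm38.p6. The 250 bases before the start were searched on both strands for an E-box (CACGTG), a D-box (TTATGTAA), a ROR element (AGGTCA), a cAMP element (TGACGTCA), a glucocorticoid core (ACANNNTGT), a C/EBP core (TTGCGCAA), and a TATA box (TATAAA). The runs of Otc and Glul are shown, Otc because it was among the genes that differed with time and Glul because it held the most matches, and capitals mark the matches. The run of Otc was chrX:10252055-10252304 on the + strand, and that of Glul was chr1:153899679-153899928 on the + strand.
Otc: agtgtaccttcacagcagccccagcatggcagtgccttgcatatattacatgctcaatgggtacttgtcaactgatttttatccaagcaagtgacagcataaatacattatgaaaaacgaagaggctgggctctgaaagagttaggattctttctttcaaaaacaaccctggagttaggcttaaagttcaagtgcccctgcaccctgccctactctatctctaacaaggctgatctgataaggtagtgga
Glul: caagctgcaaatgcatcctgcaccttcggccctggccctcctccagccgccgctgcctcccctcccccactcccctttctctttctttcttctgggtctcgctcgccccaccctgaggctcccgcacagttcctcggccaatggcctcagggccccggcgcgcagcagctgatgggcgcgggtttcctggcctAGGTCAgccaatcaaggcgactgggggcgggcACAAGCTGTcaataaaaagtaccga
Glul held an AGGTCA from base -57 to -52 and an ACANNNTGT from base -25 to -17 counted from the RefSeq start, and the matches did not overlap. Ass1 held a CACGTG from base -36 to -31 and Got1 an AGGTCA from base -244 to -239, while Otc and Tat held none of the 7 in this window. Among 32851 promoters, CACGTG was in 6.02%, AGGTCA in 14%, and ACANNNTGT in 5.84%. D-boxes were in 0.819%, cAMP elements in 1.55%, C/EBP cores in 0.164%, and TATA boxes in 12.4%. A match describes the letters and is not evidence of a factor.

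**Figure D1:**
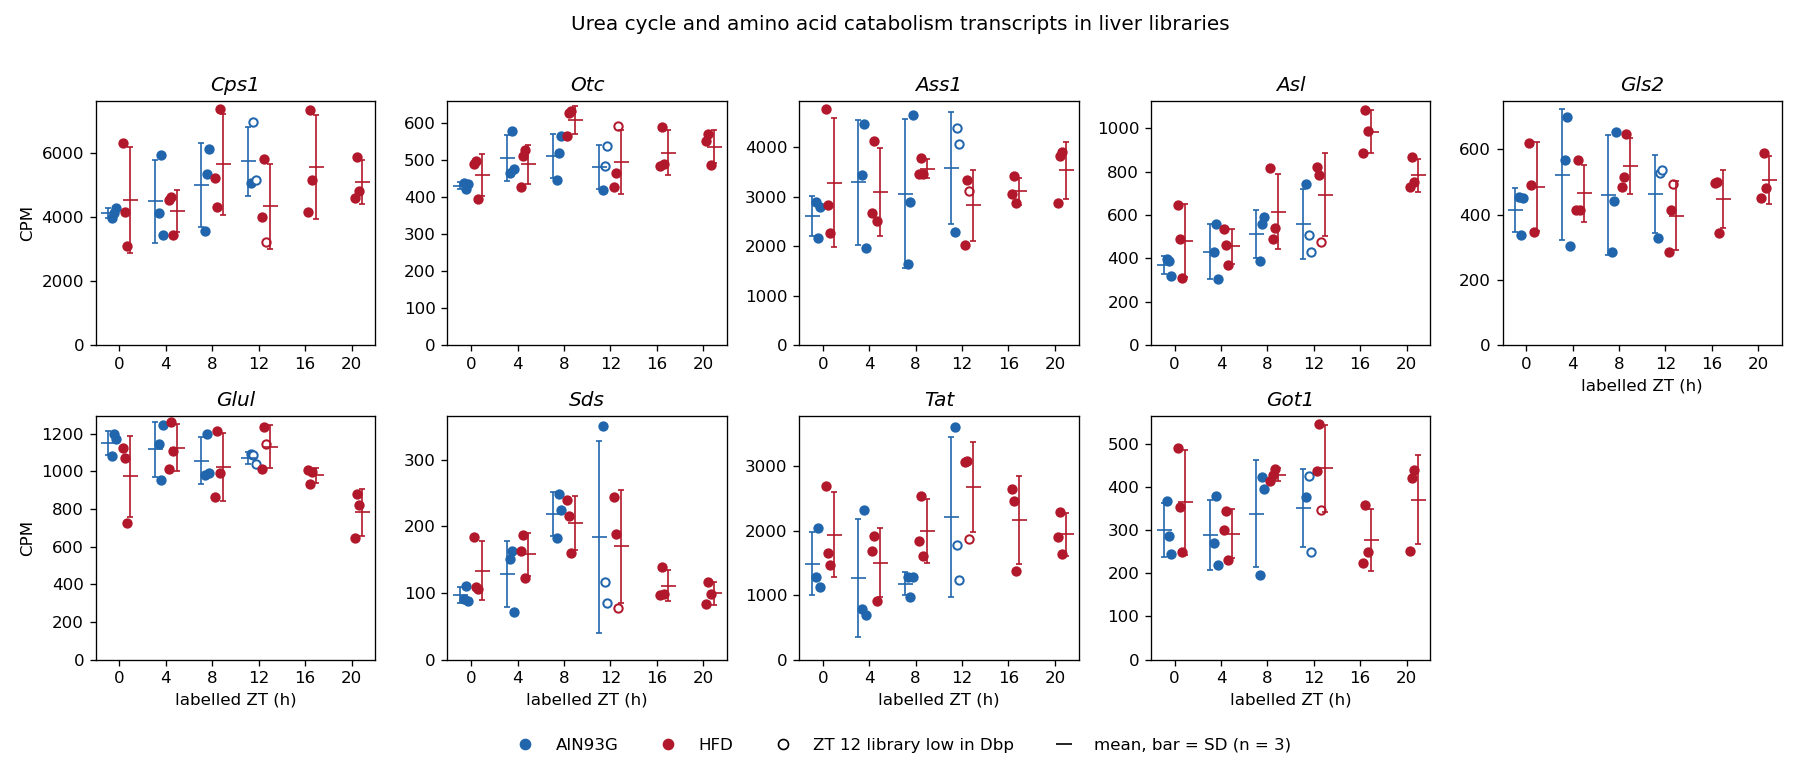
CPM (vertical axes, starting at 0) of the 9 genes against the labelled ZT in the 30 liver libraries, with 1 point per library and the mean and SD of 3 libraries beside each group. The mean of Asl was highest on the HFD at ZT 16 (984 CPM), Sds was highest at ZT 8 and in 3 libraries of ZT 12, and the open points, ZT 12 libraries low in Dbp, lay below the other ZT 12 libraries for Asl, Sds, and Tat.

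The first comparison was between the diets over ZT 0 to ZT 12. None of the 9 genes differed (edgeR quasi-likelihood test with Benjamini-Hochberg adjustment over 12023 genes), where 0.0998% of all genes passed. No member had an unadjusted p under 0.05 either (8.31% of all genes), and DESeq2 called 0 of the 9. The log2 fold change of HFD against AIN93G was above 0 for 7 of 9 members, with a median of 0.07, against 49.3% of all genes above 0. The largest was that of Tat. In AIN93G libraries Tat was between 691 and 3611 CPM (median 1277, n = 12), and in HFD libraries it was between 905 and 3083 CPM (median 1851, n = 12). The groups overlapped, and the log2 fold change was 0.40 ± 0.21 (SE), with a 95% confidence interval of -0.02 to 0.83 and an adjusted p of 0.61 (edgeR). Without the 3 ZT 12 libraries low in Dbp it was 0.26 ± 0.21.

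Of the 4 urea cycle enzymes described here, Asl had the largest diet difference, 0.25 ± 0.14 (95% confidence interval -0.04 to 0.54) with an adjusted p of 0.631 (edgeR). Asl was between 305 and 741 CPM on AIN93G and between 309 and 822 CPM on the HFD. For the other 3 cycle enzymes the values were close to 0. The log2 fold changes were -0.05 ± 0.14 for Cps1, 0.07 ± 0.07 for Otc, and 0.02 ± 0.16 for Ass1. The interval of Otc, from -0.06 to 0.21, was the narrowest among the 9 genes. The glutamine pair gave 0.01 ± 0.14 for Gls2 and -0.06 ± 0.08 for Glul. Sds was at 0.12 ± 0.21 and Got1, which moves amino groups to aspartate, at 0.23 ± 0.15. Without the 3 ZT 12 libraries low in Dbp, Asl was at 0.18 ± 0.14, Ass1 at 0.13 ± 0.19, Got1 at 0.22 ± 0.16, Gls2 at 0.07 ± 0.16, Otc at 0.06 ± 0.07, and Glul at -0.09 ± 0.09. The sign turned for Cps1 (0.01 ± 0.15) and Sds (-0.04 ± 0.15), and none of these values passed.

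At single time points, the diets differed in none of the 9 genes at ZT 0, 4, 8, or 12, in edgeR or DESeq2, and no member had an unadjusted p under 0.05 (all genes that passed, 0%, 0%, 0.0166%, and 0% in this order, and 3.99%, 2.51%, 11.7%, and 7.28% unadjusted). The widest gap was again Tat at ZT 8. The AIN93G libraries of ZT 8 had 1279, 967, and 1275 CPM and the HFD libraries 1838, 2542, and 1599 CPM. These groups did not overlap, and the log2 fold change was 0.74 ± 0.41 with an adjusted p of 0.474 (edgeR). Otc at ZT 8 had 448, 521, and 566 CPM on AIN93G and 565, 628, and 633 CPM on the HFD, with a log2 fold change of 0.23 ± 0.13 and an adjusted p of 0.473 (edgeR). The test of whether the diet difference changed with time point also called 0 of the 9 (0% of all genes), with 0 unadjusted p-values under 0.05 (6.06% of all genes) and 0 calls by DESeq2.

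**Figure D2:**
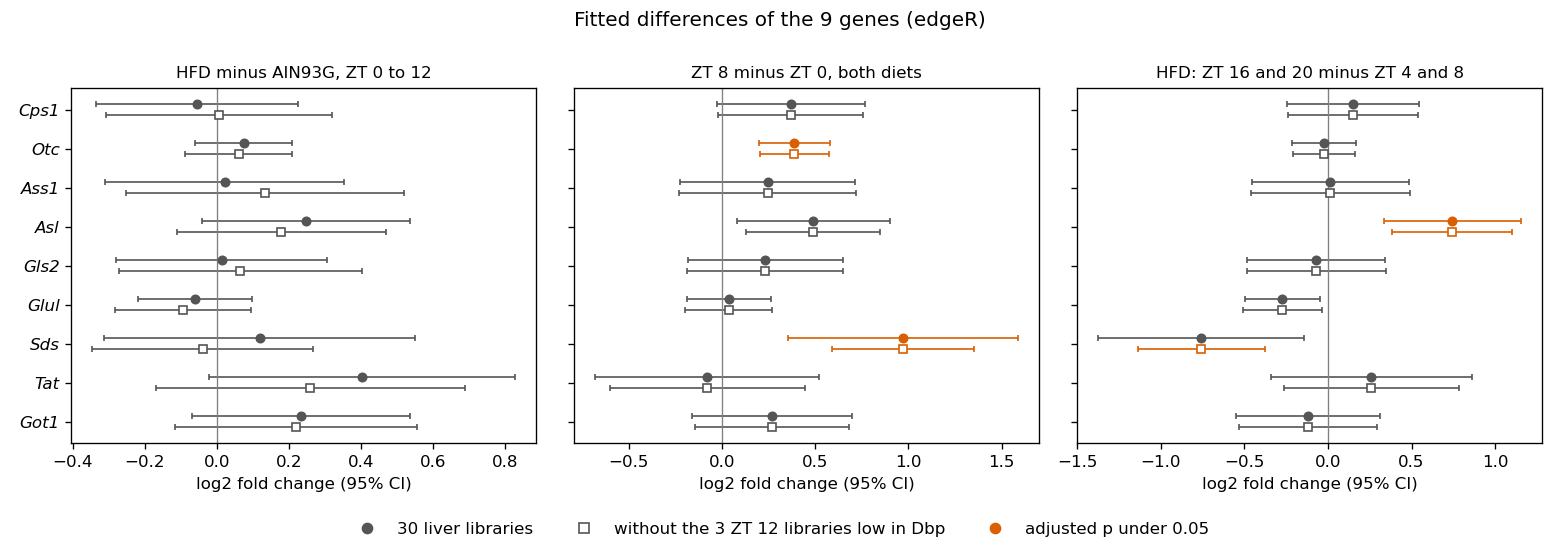
Fitted log2 fold changes (horizontal axes) of the 9 genes with 95% confidence intervals for the diet, for ZT 8 against ZT 0, and for HFD ZT 16 and 20 against ZT 4 and 8, from 30 liver libraries and without the 3 ZT 12 libraries low in Dbp. Otc and Sds passed for ZT 8 against ZT 0, Asl passed for ZT 16 and 20, Sds passed there only without the 3 libraries, and no gene passed for the diet.

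The next comparison was within the light phase, ZT 8 against ZT 0, with both diets averaged. Of the 9 genes, 2 were higher at ZT 8 and 0 lower, where 11.3% of all genes passed, 5.51% higher and 5.78% lower. With counts scaled by library size alone, 464 genes were higher and 823 lower in place of 663 and 695. The log2 fold change was above 0 for 8 of 9 members, with a median of 0.27, against 50.2% of all genes above 0. The 2 genes were Otc, which makes citrulline, and Sds, which turns serine into pyruvate and ammonia.

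Otc was 439, 421, and 436 CPM in the AIN93G libraries of ZT 0 and 489, 498, and 395 CPM in the HFD libraries of ZT 0. At ZT 8, 5 of 6 libraries lay above all ZT 0 libraries, and AIN93G replicate 1 with 448 CPM did not. The log2 fold change was 0.39 ± 0.09, or 1.31-fold, with an adjusted p of 0.00788 (edgeR), and leaving out any 1 of the 30 libraries kept the call. Without a count filter it did not pass (adjusted p = 0.0596, edgeR), and Asl passed in its place (0.48 ± 0.15). Otc also had the smallest spread of the 9 genes, with an SD of log2 CPM of 0.144 within groups, at the 8.04th percentile of all genes.

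Sds was 91.1, 111, and 88.2 CPM in the AIN93G libraries of ZT 0 and 183, 248, and 225 CPM in those of ZT 8. On the HFD it was 185, 109, and 107 CPM at ZT 0 and 240, 215, and 160 CPM at ZT 8. The AIN93G groups did not overlap, and the HFD groups overlapped through the highest ZT 0 library. Over both diets Sds was higher by 0.97 ± 0.30 on the log2 scale, or 1.96-fold, with an adjusted p of 0.037 (edgeR). Without the 3 ZT 12 libraries low in Dbp it was 0.97 ± 0.18 with an adjusted p of 0.000915 (edgeR). The call was kept in 21 of 30 fits with 1 library left out (adjusted p 0.006 to 0.0892). It was lost without any 1 of AIN93G ZT 0 replicates 1 to 3, AIN93G ZT 8 replicates 2 and 3, HFD ZT 0 replicates 2 and 3, and HFD ZT 8 replicates 1 and 2.

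Asl, which cleaves argininosuccinate to arginine and fumarate, was 0.49 ± 0.20 higher at ZT 8 on the log2 scale but did not pass (adjusted p = 0.119, edgeR). Cps1 was at 0.37 ± 0.19, Got1 at 0.27 ± 0.21, Ass1 at 0.25 ± 0.23, and Gls2 at 0.23 ± 0.20. Glul at 0.04 ± 0.11 and Tat at -0.08 ± 0.29 had the smallest values. All 7 muscle markers that were tested were higher at ZT 8, and without AIN93G ZT 8 replicate 2 the values of Otc and Sds were 0.40 and 0.94 on the log2 scale, of which that of Otc passed (adjusted p 0.0167 and 0.0675, edgeR). The part of muscle RNA in these values was not tested.

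The dark phase could be compared with the light phase on the HFD alone. Of the 9 genes, 1 was higher at ZT 16 and 20 than at ZT 4 and 8 and 0 were lower, where 6.89% of all genes passed, 3.11% higher and 3.78% lower. The gene was Asl. Its 3 libraries of ZT 4 had 535, 461, and 370 CPM and those of ZT 8 had 815, 491, and 540 CPM. Those of ZT 16 had 884, 1084, and 985 CPM and those of ZT 20 had 728, 868, and 751 CPM. Of the 6 dark libraries, 4 lay above every light library, and ZT 8 replicate 1 was the light library that overlapped the dark ones.

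The log2 fold change of Asl was 0.74 ± 0.20, or 1.67-fold, with an adjusted p of 0.0233 (edgeR), and it was 0.74 ± 0.17 without the 3 ZT 12 libraries low in Dbp. It passed in 25 of 30 fits with 1 library left out. Without HFD ZT 4 replicate 3, ZT 8 replicate 2, ZT 8 replicate 3, ZT 16 replicate 2, or ZT 20 replicate 2, the adjusted p was between 0.0502 and 0.0668, and the fold change over all 30 fits was between 0.66 and 0.89 on the log2 scale.

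Sds had the opposite order. It was 163, 188, and 123 CPM at ZT 4 and 240, 215, and 160 CPM at ZT 8 on the HFD, and 96.8, 139, and 98.2 CPM at ZT 16 and 83.5, 117, and 97.9 CPM at ZT 20. Of the 6 dark libraries, 5 lay below every light library. Its difference was -0.76 ± 0.30 on the log2 scale with an adjusted p of 0.126 (edgeR), and -0.76 ± 0.18 with an adjusted p of 0.011 (edgeR) without the 3 ZT 12 libraries low in Dbp. The size was the same and the call depended on these libraries, which are in neither of the groups compared but enter the common estimate of the spread.

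Glul was 644, 883, and 822 CPM at ZT 20 of the HFD, and between 863 and 1261 CPM at ZT 4 and 8. Its log2 fold change of dark against light was -0.27 ± 0.11 with an adjusted p of 0.131 (edgeR). For the other 6 members, the values were between -0.12 for Got1 and 0.26 for Tat, each smaller in size than its SE.

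Over the 6 time points of the HFD, the test for any difference called Asl alone among the 9 genes (adjusted p = 0.0461, edgeR), where 5.27% of all genes passed. DESeq2 called Asl and Glul (adjusted p = 0.00253 and 0.0456), and 1658 of all 12023 genes. The call of Asl in edgeR held in 11 of 30 fits with 1 library left out (adjusted p 0.0173 to 0.094). Without the 3 ZT 12 libraries low in Dbp it was at 0.00736, and Sds passed as well, at 0.0144 (edgeR). Of the others, Glul (unadjusted p = 0.0197, adjusted 0.129) and Otc (0.03, adjusted 0.155) came closest in edgeR.

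A 24 h cosine, fitted to the 18 HFD liver libraries, passed for Asl and Sds, where 8.52% of all genes passed. Asl had an amplitude of 0.56 ± 0.11 on the log2 scale with a peak at ZT 15.4 ± 0.73 h, a peak 2.18-fold above the trough, and an adjusted p of 0.00927 (edgeR). Sds had an amplitude of 0.51 ± 0.13 with a peak at ZT 8.05 ± 0.95 h, 2.02-fold above the trough, and an adjusted p of 0.038 (edgeR). The call of Asl held in all 18 fits with 1 library left out, and that of Sds in 7 of 18 (adjusted p 0.00293 to 0.0887). Without HFD ZT 12 replicate 3, the library of these 18 that was low in Dbp, Asl had an amplitude of 0.61 ± 0.09 with a peak at ZT 15.0 ± 0.59 h and an adjusted p of 0.000824, and Sds 0.56 ± 0.10 with a peak at ZT 8.59 ± 0.70 h and 0.00293 (edgeR). Tat, a classic glucocorticoid-induced transcript, had an amplitude of 0.34 ± 0.12 with a peak at ZT 13.8 ± 1.4 h and an adjusted p of 0.17 (edgeR). The amplitude was 0.22 ± 0.07 for Glul and 0.02 ± 0.10 for Ass1, and neither passed. Without that library the amplitudes of these 3 genes were 0.37 ± 0.13, 0.21 ± 0.07, and 0.02 ± 0.11, and none passed (adjusted p 0.119, 0.151, and 0.988, edgeR).

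On AIN93G, where only ZT 0 to ZT 12 could be used, none of the 9 genes passed the test for any difference between time points (0.823% of all genes passed, 1 member and 10.7% of all genes had an unadjusted p under 0.05, DESeq2 called 0). Sds had the smallest p (0.03, adjusted 0.391, edgeR). Its ZT 12 libraries had 350, 117, and 85.2 CPM, a wider range than that of the other 3 time points together (71.3 to 248 CPM). Without ZT 12, over the other 3 time points, Sds passed with an adjusted p of 0.016 (edgeR).

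The ZT 12 libraries were therefore viewed singly. The libraries with 59.0 to 91.4 CPM of Dbp (AIN93G replicate 1, HFD replicates 1 and 2) had 350, 244, and 189 CPM of Sds, and the others had 117, 85.2, and 77.1 CPM. Tat was 3611, 3068, and 3083 CPM in the former and 1783, 1233, and 1865 CPM in the latter. Asl was 741, 822, and 784 CPM in the former and 509, 430, and 475 CPM in the latter. Otc had the reverse order, with 420, 427, and 465 CPM in the former and 484, 539, and 593 CPM in the latter. Each set held libraries of both diets. Gls2 was lower in the former as well, with 327, 285, and 413 CPM against 526, 538, and 494 CPM. For Glul the sets overlapped (1094, 1011, and 1238 CPM against 1086, 1037, and 1148 CPM). The sets did not overlap for 5 of the 9 genes, and for 29.7% of all genes tested. The liver library of ZT 24 had 336 (AIN93G) and 217 CPM (HFD) of Sds, 2694 and 3044 CPM of Tat, and 768 and 769 CPM of Asl. It had 627 and 458 CPM of Otc and 654 and 320 CPM of Gls2, so that the AIN93G library, although high in Dbp, lay above all 6 ZT 12 libraries for these 2 genes. These are values of single libraries sorted by a measured transcript, so no test was made, and the part of the labels in them was not tested.

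**Figure D3:**
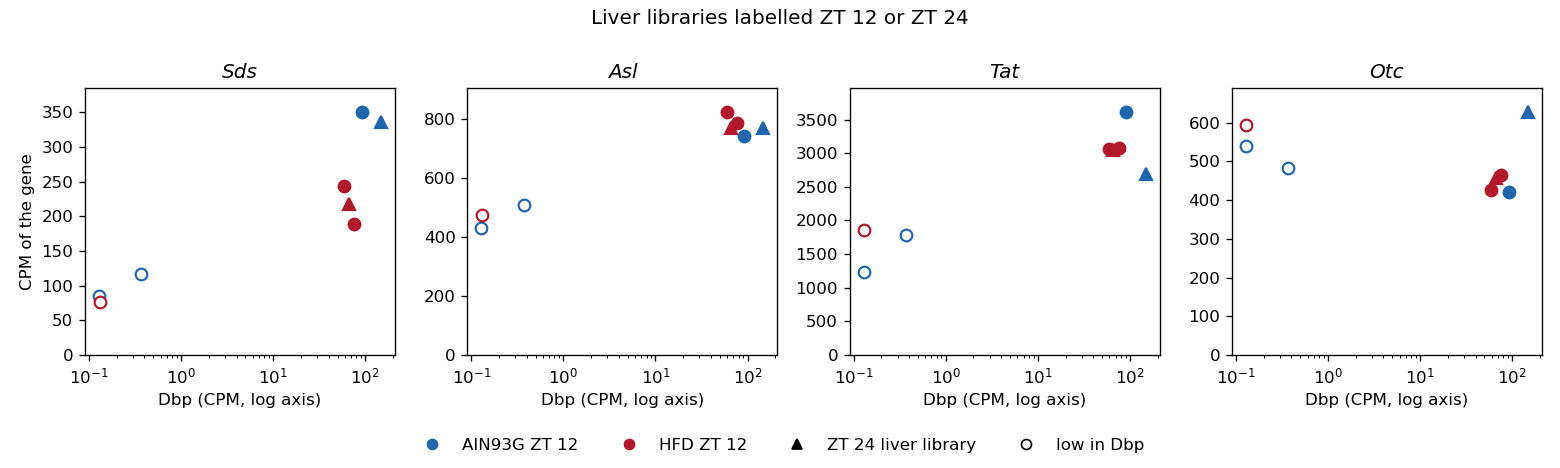
CPM of Sds, Asl, Tat, and Otc (vertical axes, starting at 0) against CPM of Dbp (log axis) in the 6 libraries labelled ZT 12 and the 2 liver libraries labelled ZT 24. The 3 ZT 12 libraries under 1 CPM of Dbp were lowest for Sds, Asl, and Tat, and the ZT 24 libraries lay closer to the other ZT 12 libraries for these 3 genes, while for Otc the AIN93G library of ZT 24 (627 CPM) lay above all ZT 12 libraries.

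Mice of the same diet and time point also differed from each other, and many of the 9 genes deviated together. For each gene, the deviation of each library from its group mean was taken on the log2 scale, and the 36 pairs of genes were correlated over 30 libraries, with 100000 permutations within groups and Benjamini-Hochberg adjustment over the 36 pairs. By Pearson's r, the adjusted permutation p was under 0.05 for 13 pairs. Of these, the pair of Otc and Ass1 did not pass by Spearman's rho (adjusted permutation p = 0.0636). Of the 36 pairs, 14 had an r over 0.5, against 4% of all pairs of the 12023 genes tested, and the median r was 0.347, against -0.00157 over all pairs. The members were chosen for their shared pathway, and whether other pathways of the liver give like values was not tested. All counts are relative to the same library total, which the genes of a library share. Ass1 and Gls2 had the highest r (Pearson's r = 0.918, Spearman's rho = 0.871, adjusted permutation p = 0.00036 and 0.00108), with r = 0.888 without the 2 libraries farthest from the median of Ass1. In the AIN93G libraries of ZT 8, Ass1 was 1650, 2888, and 4660 CPM and Gls2 was 286, 443, and 653 CPM, in the same order.

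Asl and Sds (r = 0.834, rho = 0.834, adjusted permutation p = 0.00072 and 0.00108, r = 0.829 without 2 libraries) and Cps1 and Got1 (r = 0.795, rho = 0.832, adjusted permutation p = 0.00036 for both, r = 0.769 without 2 libraries) came next. Glul was the only gene with no adjusted permutation p under 0.05 among its pairs. Its 8 pairs had a median r of 0.128 and a highest r of 0.354 with Got1. The 28 pairs of the other genes had a median r of 0.493. Otc, which is among these, also had low values with Asl (r = 0.04) and Tat (r = -0.06). Otc and Sds had the lowest r, -0.198 (rho = -0.0812, adjusted permutation p = 0.621 and 0.806, r = -0.0702 without 2 libraries). The ZT 12 libraries moved this pattern. Without them, in 24 libraries, the r of Otc and Sds was 0.279, that of Ass1 and Sds was 0.705 in place of 0.102, and that of Ass1 and Gls2 was 0.918. The median r over pairs without Glul was then 0.624 and that over pairs with Glul 0.102.

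**Figure D4:**
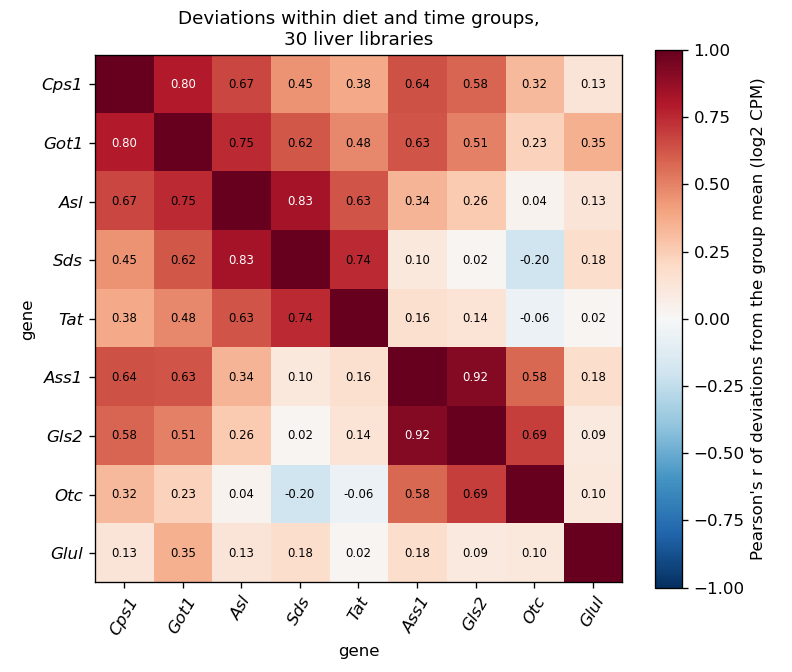
Pearson's r between the deviations of each pair of the 9 genes from their diet and time group means (log2 CPM, 30 liver libraries). The highest values were 0.92 for Ass1 with Gls2 and 0.83 for Asl with Sds, and the row of Glul stayed between 0.02 and 0.35.

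The spread within groups itself differed between the genes. The SD of log2 CPM within groups was 0.567 for Sds and 0.546 for Tat, above that of 91.9% and 91.1% of all genes. It was 0.427 for Ass1, 0.395 for Got1, 0.380 for Gls2, 0.371 for Asl, and 0.350 for Cps1, against a median of 0.259 over all genes. Only Glul (0.183) and Otc (0.144) lay below this median. Without ZT 12 the SD of Sds was 0.356, above that of 75.2% of all genes, that of Tat was 0.499 (90%), and that of Ass1 was 0.436 (85.2%), against a median of 0.248, and Glul (0.193) and Otc (0.139) still lay below it. For example, Tat was 779, 2314, and 691 CPM in the AIN93G libraries of ZT 4.

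Other genes of nitrogen handling were read from lists. Among 12 tested further genes of the urea cycle and ammonia handling, 5 were higher at ZT 8 than at ZT 0 and 0 lower, with a median log2 fold change of 0.32, where 5.51% of all genes were higher and 5.78% lower. The largest were Slc7a2, a transporter of cationic amino acids (1.43 ± 0.34), the glutamine transporter Slc38a3 (1.29 ± 0.17), the glutamate transporter Slc1a2 (1.03 ± 0.21), and the amino acid transporter Slc38a4 (0.85 ± 0.16). In HFD livers, 4 of the 12 were lower at ZT 16 and 20 than at ZT 4 and 8 and 0 higher, where 3.78% of all genes were lower and 3.11% higher. They were Slc7a2 (-1.27 ± 0.34), the ornithine aminotransferase Oat (-0.95 ± 0.24), Slc38a3 (-0.91 ± 0.17), and Slc38a4 (-0.63 ± 0.16). Asl moved against the direction of these 4 genes, and Sds (-0.76 ± 0.30, not passed) had their sign. Markers of the pericentral zone also differed with time. Of 12 tested, 6 were higher and 1 lower at ZT 8 than at ZT 0 (3 and 0 without AIN93G ZT 8 replicate 2, the library with the most muscle transcripts), and 2 were lower and 0 higher in the dark phase on the HFD (4 and 0 without the 3 ZT 12 libraries low in Dbp), with medians of 0.27 and -0.44. Of 12 periportal markers, 0 were higher and 1 lower at ZT 8 and none passed in the dark phase, with medians of 0.07 and 0.12. Whether the zones have a part in the counts of the lists was not tested. The counts of the lists that follow stand against the same shares. For ZT 8 against ZT 0, counts without AIN93G ZT 8 replicate 2 are given here for the pericentral markers alone.

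Among 13 transaminases and enzymes of the glutamate family, 6 were higher at ZT 8 than at ZT 0 and 0 lower. These included the proline dehydrogenase Prodh (0.88 ± 0.26), the alanine aminotransferases Gpt2 (0.88 ± 0.24) and Gpt (0.69 ± 0.22), and Aadat (0.54 ± 0.12). Agxt (-1.01 ± 0.19) and Agxt2 (-0.33 ± 0.08), which use glyoxylate and alanine, were lower and Kyat3 (0.66 ± 0.15) was higher in the dark phase on the HFD. Of 14 genes for serine, glycine, and threonine, 1 was higher (Pipox, 0.33 ± 0.10) and 2 were lower at ZT 8, the glycine decarboxylase Gldc (-1.05 ± 0.24) and Psph, the last step of serine synthesis (-0.89 ± 0.23). Psph was 0.79 ± 0.23 higher in the dark phase on the HFD.

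Of 10 genes for tyrosine, phenylalanine, and histidine, 2 were higher at ZT 8, namely Gstz1 (0.36 ± 0.09) and Fah (0.36 ± 0.11), while Tat, the tyrosine step among the 9 genes, was at -0.08 ± 0.29. Of 12 genes for methionine and cysteine, Csad (-1.01 ± 0.33) and Bhmt (-0.63 ± 0.21) were lower. Of 24 genes for branched-chain amino acids and lysine, Dhtkd1 (0.77 ± 0.18), Auh (0.55 ± 0.14), and Dbt (0.32 ± 0.10) were higher at ZT 8, and Ppm1k (-0.75 ± 0.23), Mccc2 (-0.30 ± 0.09), and Hibch (-0.29 ± 0.08) were lower in the dark phase on the HFD. Among 17 regulators, Ppargc1a (0.84 ± 0.28) and Cebpa (0.64 ± 0.14) were higher at ZT 8 and Atf4 (0.62 ± 0.14) was higher in the dark phase on the HFD. No gene of these 7 lists differed between the diets over ZT 0 to ZT 12 or at a single time point in the edgeR fit with TMM factors and the count filter. Over ZT 0 to ZT 12, 17 of the 102 genes tested had an unadjusted p under 0.05, against 8.31% of all genes. Without the 3 ZT 12 libraries low in Dbp these were 6 of 102, against 5.2%, and no list gene passed. Agxt2 was higher on the HFD with counts scaled by library size alone (0.29 ± 0.06, adjusted p = 0.0423, edgeR), without ZT 12 (0.29 ± 0.06), and in DESeq2 (0.27 ± 0.06). Ppm1k was higher in DESeq2 (0.58 ± 0.16) and without a count filter (0.58 ± 0.11), where Oat (0.54 ± 0.12) and Slc7a2 (0.55 ± 0.14) were higher too, and Atf4 was lower without ZT 12 (-0.43 ± 0.07). At ZT 8, Oat and Ppm1k were higher and Csad and Atf4 lower on the HFD without a count filter. In that setting 183 genes passed for the diet at ZT 8 in place of 2, and 232 over ZT 0 to ZT 12 in place of 12.

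The genes whose log2 CPM was most like that of a member over the 32 liver libraries are given as a description, since these libraries fall into time groups. For Asl they were Ahcy, the hydrolase of S-adenosylhomocysteine (r = 0.912), Fmo5 (0.859), and Tk1 (0.848). Etnk2 (0.894) and Mt1 (0.883) were among the 3 most like Sds, Ugt2b36 (0.807) and Hibadh (0.806) among the 3 most like Otc, and Aass (0.727) and Klf15 (0.698) among the 3 most like Got1. Glul had lower values, with Teddm2, its antisense partner, first (0.689), then Gstm6 (0.663) and Abhd16a (0.650).

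At ZT 16 and ZT 20 the diets could not be compared, because every AIN93G library there held few liver transcripts and diet and tissue cannot be told apart. In the 10 libraries with few liver transcripts, Cps1 was at most 3.01 CPM, Otc 0.34 CPM, Sds 0.56 CPM, and Tat 0.96 CPM. Gls2 was at most 2.68 CPM. Asl (17.2 to 36 CPM), Got1 (10.3 to 43.7 CPM), and Ass1 (2.69 to 19.9 CPM) were present at low levels, and Glul was not low. In bulk tissue, fewer cells of a type and less RNA per cell cannot be told apart.

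**Figure D5:**
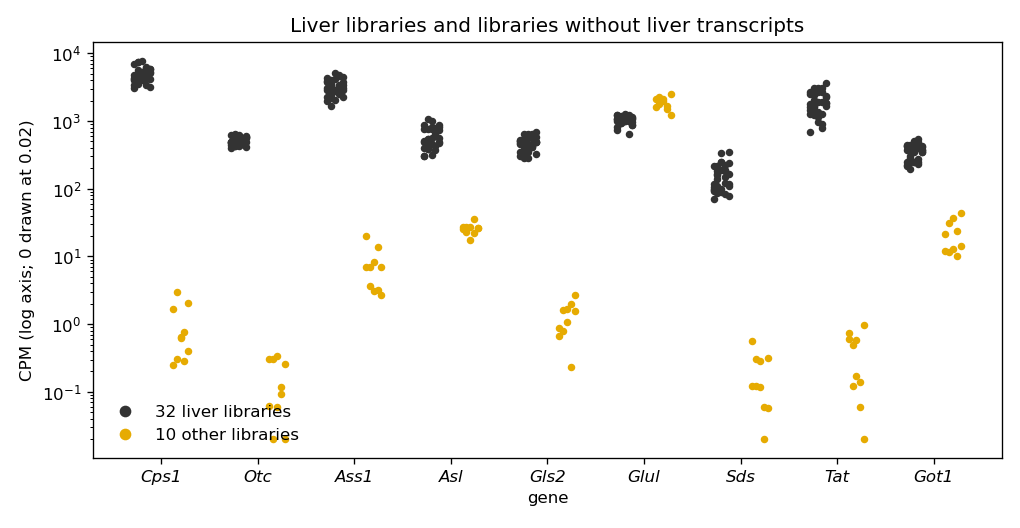
CPM (log axis) of the 9 genes in the 32 liver libraries and the 10 other libraries, with 1 point per library. Of the 9 genes, Glul alone was not lower in the other libraries (1246 to 2502 CPM) than in the liver libraries (644 to 1261 CPM).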

How the data were processed

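Poly(A) RNA of 42 samples labelled as liver was sequenced for the authors by a company. The authors deposited the unnormalized read counts of all genes. The submitters' processing notes name fastp, STAR, HTSeq 0.6.1, DESeq, STAR-Fusion, and mm10, and the strand setting is not given in the sources used here. Libraries were grouped by the labelled diet and time point. Levels were expressed as CPM of the library total or, between genes, TPM from the gene lengths in the table. In R 4.3.3, edgeR 4.0.16 fitted the 10 group means of 30 liver libraries with TMM factors (quasi-likelihood test), for 12023 genes whose mean count reached 25. The threshold was an adjusted p (Benjamini-Hochberg) of 0.05. A cosine with a period of 24 h was fitted to 18 HFD libraries (12008 genes). DESeq2 1.42.0 was used only where it is named. Permutation tests were two-sided. The tests were checked on simulated counts with 200 changed genes. For time points on the HFD, edgeR recovered 189 with 8 false calls among 11965 genes, and DESeq2 192 with 40. The size of the planted changes is not stated here. These counts therefore do not show how often differences of the size fitted for the members would be missed. All pairs of replicates differed by more than the sampling noise. The p-values of the fits rest on an estimate of the spread between these libraries. Total counts were 14592481 to 21368409, and intervals cover counting error and the spread between libraries.

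All 9 genes were named. Some other genes, 1 of them on the same list, are not reported here. From the lists of other genes, those past the threshold with the largest fold change, at most 4 in each direction, were named per comparison, and other genes of lists with few calls were named after their values were seen. The 3 most alike genes were named for the 5 members with the smallest p over time on the HFD. The names and lists were chosen with earlier results of these data known. Alternatives were DESeq2, other scaling and filters, fits of other libraries, and leaving out each library. Leaving out the 3 ZT 12 libraries with Dbp under 10% of the ZT 8 median and fits in limma 3.58.1 (voom), with and without the title prefix as a block, were chosen after seeing the data. Promoter sequences are from RefSeq (GRCm38.p6).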

Additional observations from a re-analysis of the deposited data

Results flagged for a closer look

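Glul was measured in 10 libraries with few liver transcripts, which were left out of the tests of the report and entered only the alternative fits with all 42 libraries. It lay between 1246 and 2502 CPM there, and in 9 of the 10 it was above the highest AIN93G liver library of ZT 0 to ZT 12 (957 to 1246 CPM). In single libraries it was 1628, 1810, and 1990 CPM at ZT 16 and 1480, 1246, and 2114 CPM at ZT 20 on AIN93G, 2284 and 2085 CPM at ZT 24 on AIN93G, and 1641 and 2502 CPM at ZT 24 on the HFD. Adipocyte markers summed to between 22961 and 39093 CPM in these libraries and to at most 2605 CPM in the liver libraries of ZT 0 to ZT 12. Their part in the level of Glul was not tested. No diet and time group had more than 3 libraries, so no group was tested for a single library that stood apart.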

How the results depend on the processing

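None of the 9 genes differed between the diets under any alternative. Of the 9 genes, 1 passed the test of time points on the HFD, and this count was 2 with DESeq2, 2 without a count filter, 2 without ZT 12, 2 without the 3 ZT 12 libraries low in Dbp, 0 with HFD libraries alone, 0 with all 42 libraries, and 0 to 1 without 1 library. On AIN93G the count was 0, and it was 2 without a count filter, 1 without ZT 12, and 1 without the 3 libraries, which leaves 1 AIN93G library at ZT 12 with its spread taken from the other groups (0 without any 1 library). For HFD ZT 16 and 20 against ZT 4 and 8 it was 1, and it was 2 without a count filter, 2 without ZT 12, 2 without the 3 libraries, 0 with all 42, and 0 to 2 without 1 library. For ZT 8 against ZT 0 it was 2, and 0 with all 42 and 1 to 2 without 1 library, and without a count filter the 2 were Asl and Sds in place of Otc and Sds. For the cosine it was 2, and 1 with the HFD liver library of ZT 24, 1 in limma, and 1 to 2 without 1 library. The 42-library fit also holds the 10 libraries with few liver transcripts, which share a group with a liver library only at ZT 24. The cause was not tested for any of these alternatives. The diet differences of Cps1 and Sds turned their sign. Cps1 was at 0.0508 without ZT 12 and 0.0063 without the 3 libraries, and Sds at -0.0397 without the 3 libraries. Without 1 library, the ranges were -0.0703 to 0.14 for Ass1 and -0.055 to 0.107 for Gls2. Over all genes, the diet called 12, and 83 (DESeq2), 22 (library size), 232 (no filter), 64 (without ZT 12), 1 (all 42), 4 (limma), 0 (without the 3 libraries), and 5 to 183 (without 1 library). Time on the HFD called 634, and 1658 (DESeq2), 1738 (no filter), 1047 (without ZT 12), 65 (all 42), 325 (HFD alone), and 1587 (without the 3 libraries). Time on AIN93G called 99, and 276, 872, 437, 1, 0 (AIN93G alone), and 760 in the same order, 17 with 25 counts in every library, and 17 in limma. The dark against the light phase called 828 and 157 with all 42, and ZT 8 against ZT 0 called 1358 and 320. The cosine called 1023, and 1693 (DESeq2), 367 (with ZT 24), and 1710 (without HFD ZT 12 replicate 3, the only 1 of the 3 libraries in this fit). No paired analysis was possible because the replicate numbers only name the libraries and mark different mice at each time and diet. The titles of 13 of the 30 libraries share a prefix with another title, whose meaning is not given in the sources used here. Of the 8 pairs with the same prefix, 1 had deviations from the group means that correlated over 0.1 (range -0.299 to 0.239). With the prefix as a block, limma had a correlation of 0.0159 within prefixes, called as many of the 9 genes in each comparison as without it, 1 of them for the cosine, and called 4 genes for the diet and 20 for time on AIN93G. The lowest count of any of the 9 genes in a liver library was 1181 (Sds).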

Other observations

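The liver library of ZT 24 on AIN93G (replicate 3) lay above the highest AIN93G liver library of ZT 0 to ZT 12 for 5 of the 9 genes. It had 7625 CPM of Cps1 and 5097 CPM of Ass1, against at most 6967 and 4660 CPM. It had 627 CPM of Otc, 768 CPM of Asl, and 515 CPM of Got1, against at most 579, 741, and 424 CPM. For Gls2, Glul, Sds, and Tat it lay within the range. The liver library of ZT 24 on the HFD (replicate 3) lay within the range of the HFD liver libraries of ZT 0 to ZT 20 for all 9 genes, with 5705 CPM of Cps1 (3099 to 7380) and 2444 CPM of Ass1 (2015 to 4767). With 1 liver library per diet at ZT 24, no test was made. The share of all genes for which the AIN93G library lay above its range was not determined. Whether the count of 5 is particular to these genes was therefore not tested.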
